A study of Drosophila melanogaster with 9 samples.

Results

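The cup genes of Drosophila melanogaster are a small class of testis genes named in fly nomenclature after sporting trophies. They were taken here as every probe set whose single gene symbol ends in -cup. The array held 11 such probe sets for 10 genes (c-cup, d-cup, f-cup, h-cup, m-cup, p-cup, r-cup, s-cup, w-cup and wa-cup), out of 13966 probe sets for 10845 named genes. s-cup had 2 probe sets and every other gene 1. The gene table listed 11 symbols of this form, and the remaining gene, t-cup, was not analysed here.

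Testes were profiled on 9 Affymetrix expression arrays, with 3 arrays in each of 3 groups. The flies were raised at 25 °C, and testes of males up to a day after eclosion were dissected by hand and kept frozen until enough had been pooled. Control males carried the marker mutations red[1] e[1], and their testes were described as normal. The can males carried the allele can[3] together with w, and they shared the red[1] e[1] markers with control, which had no w in its genotype. The third group was named comr in its titles and had the genotype comr[z1340] cn[1] bw[1], while its source name gave aly[5] and its description aly, so its arrays are called comr-labelled throughout. Its markers differed from those of control, and strain and mutation cannot be told apart in that comparison. Whether the arrays of a group came from separate dissections is not stated. The p values therefore reflect array-to-array spread, which may be technical.

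Sperm develop in the fly testis from germline stem cells through mitotic divisions, a long spermatocyte growth phase, meiosis and the elongation of spermatids. Most transcripts for spermatids are made beforehand in spermatocytes and stored. Cup genes, with the related comet genes, are known as an exception: they are transcribed after meiosis, and their RNAs gather at the ends of elongating spermatid tails. The comr protein belongs to the testis meiotic arrest complex tMAC, as does aly, and can encodes a testis form of a TAF, a subunit of the general transcription factor TFIID. Germ cells mutant for any of these genes stop as spermatocytes and do not form spermatids. In whole testes, fewer cells of a type and less RNA per cell cannot be told apart.

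Values are probe set signals on a linear scale, and every array as deposited has the same trimmed mean. As floor, 20.3 was taken, which none of the 23 unspiked control probe sets exceeded on any array. Signals of different probe sets are not comparable with one another, so only ratios within a probe set are compared between genes. A change is a difference of log2(signal + 16) with its standard error (SE), and a probe set is called when its Benjamini-Hochberg adjusted p from limma over all tested probe sets is under 0.05 and it differs by at least 2-fold. The offset of 16 makes the changes of dim probe sets look smaller. Where a group had no array above the floor, the fold is a lower bound: the geometric mean of the other group divided by the floor.

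The transcripts of the genes named by the labels did not settle the genotypes. Signals of comr were 13.9, 14.2 and 23.8 in control, 34.7, 30 and 35.7 in the comr-labelled arrays and 68.7, 49.1 and 56.6 in can. The can probe set gave 25.3, 28.1 and 41.9 in control, 174.7, 165.4 and 149.0 in the comr-labelled arrays and 41.4, 27.1 and 45.4 in can. For aly the control arrays lay at 79.8 to 89.6, those labelled comr at 526.9 to 558.8 and the can arrays at 165.1 to 187.7. The labels do not say whether these alleles lower their own transcripts. Arrays of a group correlated at 0.972 to 0.987. The mean signal of 10 genes of the male accessory gland, which lies beside the testis, was 60.7 to 408.8 in control, 4.55 to 172.8 in the comr-labelled arrays and 10.8 to 355 in can. On most arrays that mean rested mainly on Acp95EF. This gene gave 558.1 to 2552.5 in control, 2.8 to 1171.1 in the comr-labelled arrays and 28.8 to 2508.9 in can. As a sign of RNA quality, GAPDH gave a 3′ to 5′ signal ratio of 2.59 ± 0.294 (SD, n = 3) in control, 5.99 ± 0.635 in the comr-labelled arrays and 5.52 ± 1.33 in can, while actin gave 2.62, 2.43 and 2.57. The ratio of eIF4a was 5.22 ± 0.292, 6.75 ± 0.866 and 3.83 ± 0.490, so in can it was lower than in control while that of GAPDH was higher. Their part in the results below was not tested.

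In normal testes 10 of the 11 probe sets were above the floor on every array. In the comr-labelled arrays this held for 3, those of f-cup, m-cup and r-cup, and 7 were at or under the floor on all arrays. In can testes 9 were above the floor on every array. Signal from most cup genes was therefore present in can testes, although the arrest is known to come before spermatids form. The exception in can was w-cup, together with the dimmer probe set of s-cup, which gave at most 10.2 on any array. Over all probe sets the floor was counted by group mean, not on every array. By that measure 59.5% were above it in control, 57.0% in the comr-labelled arrays and 62.8% in can.

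**Figure D1:**
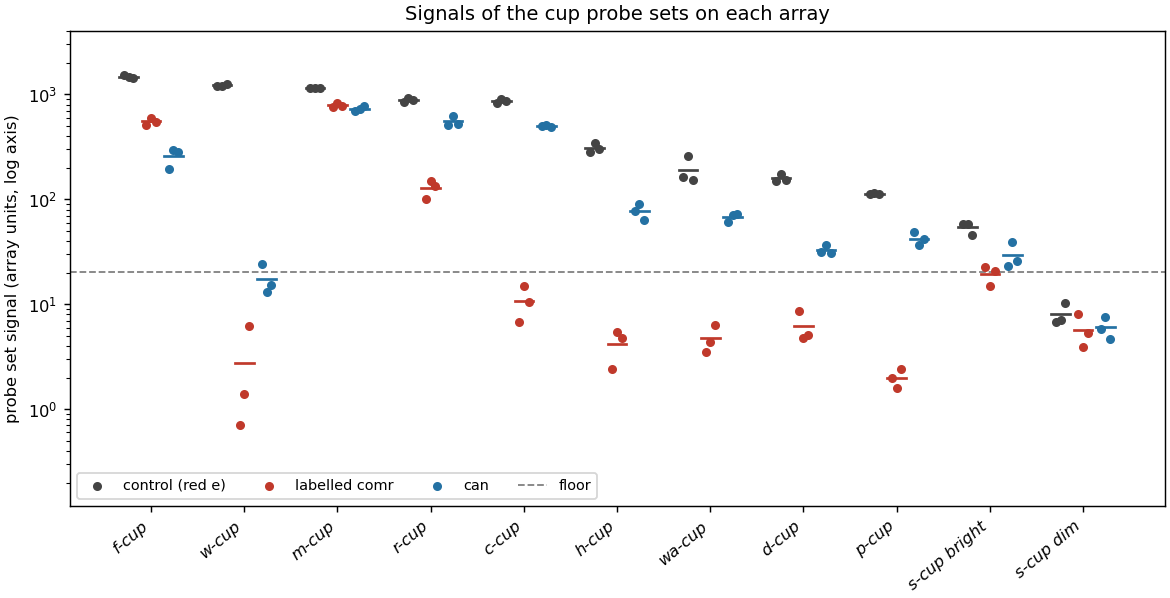
Signal of each cup probe set (log axis, array units) on every array, with 3 points per group, a short line at the group mean and a dashed line at the floor of 20.3. In the comr-labelled arrays 7 probe sets lie at or under the floor on all arrays, while in can w-cup and the dim s-cup probe set are the ones whose means lie under it.

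Against control, 8 of the 11 probe sets were called lower by limma in the comr-labelled arrays and 6 in can, with 0 called higher in either. Over all tested probe sets 16.7% were called lower and 28.9% higher in the comr-labelled arrays, and 13.1% and 20.7% in can. At an unadjusted p under 0.05 all 10 tested cup genes were lower in each mutant and 0 higher. With centring on spiked controls 9 were lower at that level in the comr-labelled arrays and 6 in can. The share of all probe sets at that level was not counted. At an adjusted p under 0.05 with no minimum fold, 2820 of 9775 were lower and 4940 higher in the comr-labelled arrays. In can 2332 were lower and 4616 higher. Without a filter on dim probe sets, which tests all 11, 8 and 6 were again called, against 11.9% of all probe sets lower and 20.4% higher in the comr-labelled arrays, and 9.27% and 14.6% in can. The median change over the 11 was -2.84 in the comr-labelled arrays, or -2.66 with 6 members at their bound, and -1.15 in can. The medians over all unfiltered probe sets were 0.03 and 0.07. Both comparisons use the same 3 control arrays, so their calls are not independent.

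w-cup (CG7363, chromosome 2L) was the member near or under the floor in both mutants. Its signals were 1196.7, 1210.2 and 1256.5 in control, 0.7, 1.4 and 6.2 in the comr-labelled arrays, and 24.1, 13.1 and 15.3 in can. All control arrays were far above all mutant arrays, and of the 6 mutant arrays only can replicate 1 passed the floor. It was lower by 60.1-fold or more in the comr-labelled arrays (adjusted p = 1.69e-12), which leaves at most 1.66% of its control signal. In can the fitted change was -5.22 (SE 0.14, adjusted p = 5.92e-11). The can mean, 17.5, lay under the floor, so the size of that fall was not measured, and it ran from -6.25 to -3.98 over the alternatives.

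c-cup (CG15623, chromosome 2L) was under the floor in one mutant and kept most of its signal in the other. Signals were 832.6, 905.8 and 873.3 in control and 6.8, 14.9 and 10.6 in the comr-labelled arrays, a fall of at least 42.9-fold (adjusted p = 5.86e-13). The can arrays gave 496.0, 513.4 and 489.4, which is 57.4% of the control mean. No can array reached a control array, yet every can array was far above the comr-labelled arrays. The change in can was -0.78 (SE 0.105, adjusted p = 2.47e-05), short of 2-fold. It passed 2-fold with the arrays centred on their medians (-1.04) or on ribosomal protein genes (-2.06). It was smaller with quantile normalisation (-0.49) and with spiked-control centring (-0.41, adjusted p = 0.0852).

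The next 4 genes repeated that order: highest in control, intermediate in can, and at or under the floor on all comr-labelled arrays. h-cup (CG6130, chromosome 3R) gave 284.9, 342.3 and 299.2 in control, 2.4, 5.4 and 4.8 in the comr-labelled arrays, and 77.9, 89.7 and 63.9 in can. The 3 groups did not overlap. It was lower by 15.2-fold or more in the comr-labelled arrays (adjusted p = 2.71e-11), and in can it fell by 1.81 (SE 0.13, adjusted p = 7.91e-08).

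wa-cup (CG10113, chromosome 3R) had the widest control spread of the class, with 163.6, 261.3 and 151.8. Its signals were 3.5, 4.4 and 6.3 in the comr-labelled arrays and 60.4, 71.6 and 72.7 in can. Control replicate 2 stood above the other control arrays, and the groups were still separate. The gene was lower by 9.19-fold or more in the comr-labelled arrays (adjusted p = 2.64e-09) and fell by 1.27 in can (SE 0.17, adjusted p = 2.88e-05). Leaving out 1 array at a time gave -1.41 to -1.05 for the can change.

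d-cup (CG14387, chromosome 3R) gave 149.4, 174.4 and 152.9 in control, 8.7, 4.8 and 5.1 in the comr-labelled arrays, and 31.5, 36.4 and 30.6 in can. Its can signals, 20.7% of control, lay just above the floor. It was lower by 7.81-fold or more in the comr-labelled arrays (adjusted p = 3.11e-10) and fell by 1.84 in can (SE 0.125, adjusted p = 4.87e-08).

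p-cup (CG12993, chromosome X) gave 111.7, 113.8 and 112.8 in control, 2.0, 1.6 and 2.4 in the comr-labelled arrays, and 48.9, 36.5 and 41.6 in can. All groups were separate. The fall was at least 5.55-fold in the comr-labelled arrays (adjusted p = 3.8e-10) and 1.15 on the log2 scale in can (SE 0.12, adjusted p = 3.01e-06). Since the control signal was only a few times the floor, a larger loss of p-cup could not have been measured. The can changes of p-cup (-0.82) and wa-cup (-0.93) did not reach 2-fold with centring on spiked controls, nor with an offset of 64 (-0.73 and -0.93).

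r-cup (CG10998, chromosome X) was reduced in the comr-labelled arrays without reaching the floor. Signals were 849.5, 930.3 and 881.0 in control, 101.5, 148.5 and 133.6 in the comr-labelled arrays, and 516.2, 623.9 and 527.6 in can. The comr-labelled arrays thus kept 14.4% of the control mean and the can arrays 62.7%. It fell by 2.66 in the comr-labelled arrays (SE 0.12, adjusted p = 5.25e-10). The change in can was -0.66 (SE 0.12, adjusted p = 0.000271), short of 2-fold except with ribosomal protein centring (-1.94). With spiked-control centring it was -0.29 (adjusted p = 0.231).

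f-cup (CG9611, chromosome 3R) showed the opposite order of the mutants. Its signals were 1515.2, 1461.4 and 1430.7 in control, 515.7, 601.6 and 543.4 in the comr-labelled arrays, and 193.1, 297.4 and 279.6 in can. All groups were separate, and all mutant arrays were well above the floor. f-cup fell by 1.39 in the comr-labelled arrays (SE 0.13, adjusted p = 5.91e-07), keeping 37.7% of control. It fell by 2.47 in can (SE 0.13, adjusted p = 4.66e-09), keeping 17.5%. With centring on spiked controls the change in the comr-labelled arrays was -0.83, under 2-fold. The RefSeq gene table lists 9 mRNAs for f-cup against 1 or 2 for each of the other members, and which of them the probe set reads was not tested.

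m-cup and s-cup did not reach 2-fold in either mutant. m-cup (CG11896, chromosome 3R) gave 1157.1, 1156.0 and 1143.7 in control, 763.8, 822.5 and 768.1 in the comr-labelled arrays, and 698.5, 719.7 and 768.1 in can. Every mutant array was below every control array, and the mutants overlapped. The changes were -0.55 (SE 0.064, adjusted p = 5.28e-06) and -0.65 (SE 0.064, adjusted p = 1.4e-06). Their size rested on the scaling: with spiked-control centring they were 0.01 and -0.27 (adjusted p = 0.957 and 0.243). Both passed 2-fold with ribosomal protein centring (-1.63 and -1.93), as did both changes of s-cup (-1.79 and -1.59). Under spiked-control centring those of s-cup were -0.58 and -0.35 (adjusted p = 0.00912 and 0.134).

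The brighter s-cup probe set (CG30044, chromosome 2R) gave 58.4, 58.0 and 45.4 in control, 22.8, 15 and 20.9 in the comr-labelled arrays, and 23.4, 39.4 and 25.7 in can. All mutant arrays were below control, and several lay close to the floor. The change was -0.98 in the comr-labelled arrays (SE 0.16, adjusted p = 0.00013) and -0.63 in can (SE 0.16, adjusted p = 0.00403). The first stood so near the threshold that it passed without control replicate 3 (-1.07), without comr-labelled replicate 1 (-1.04) or without comr-labelled replicate 3 (-1.01), with quantile normalisation (-1.01) or with an offset of 1 (-1.43). The dimmer probe set was under the floor on all 9 arrays and was left out of the tests by the filter on dim probe sets. The values of s-cup thus rest on 1 probe set.

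**Figure D2:**
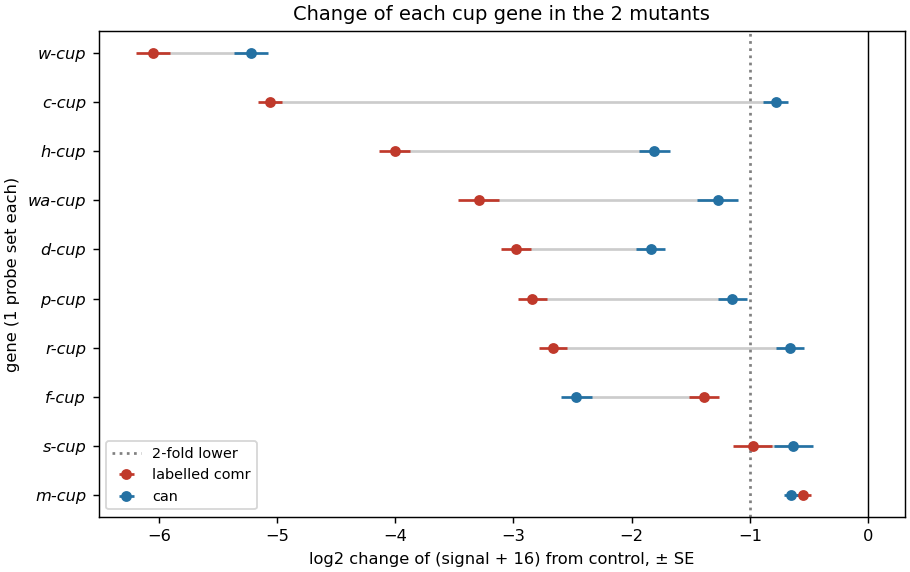
Change of each tested cup gene from control (log2 of signal + 16, ± SE, n = 3 arrays per group), ordered by the change in the comr-labelled arrays, with a dotted line at 2-fold lower. c-cup spans the gap from -5.06 to -0.78, and f-cup is the called gene whose can point lies to the left; for the 6 genes at the floor in the comr-labelled arrays the plotted size depends on the offset.

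The direct comparison set the mutants against each other. Their stocks also differed in markers, cn[1] bw[1] against w and red[1] e[1], so strain and mutation cannot be told apart here either. In it 6 of the 11 probe sets were lower in the comr-labelled arrays than in can and 1 was higher. Over all tested probe sets 10.3% were called lower and 4.54% higher, or 7.27% and 3.26% with no filter on dim probe sets. c-cup was lower by 24.6-fold or more in the comr-labelled arrays (adjusted p = 1.72e-11). h-cup was at least 3.77-fold, wa-cup at least 3.35-fold, p-cup at least 2.07-fold and d-cup at least 1.61-fold lower, with adjusted p from 9.83e-06 to 3.07e-08. For d-cup the bound is under 2-fold, and the call rests on the fitted difference of -1.14. r-cup was lower by a log2 difference of -2.0 (SE 0.12, adjusted p = 3.08e-08). The call of d-cup was lost with an offset of 64 (-0.46), as were those of wa-cup (-0.94) and p-cup (-0.69), and d-cup also lost it with quantile normalisation (-0.92), with ribosomal protein centring (-0.90) and with array median centring (-0.99).

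f-cup was the member called higher in the comr-labelled arrays than in can, by 1.08 (SE 0.13, 95% interval 0.80 to 1.36, adjusted p = 1.91e-05). All 3 comr-labelled arrays exceeded all 3 can arrays. The size of the difference lay close to 2-fold. It was 0.96 with an offset of 64 and 0.90 without can replicate 1, the lowest of the can arrays, and both times the call was lost, while over the 5 scalings it was 1.08 to 1.36. Larger differences in that direction were found for 356 probe sets, or 3.64%.

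For 3 genes the mutants were not called different. m-cup differed by 0.105 (95% interval -0.03 to 0.24, adjusted p = 0.195) and its arrays overlapped. s-cup differed by -0.35 (95% interval -0.70 to 0.01, adjusted p = 0.1), although its highest comr-labelled array, 22.8, was just below its lowest can array, 23.4. w-cup differed by -0.83 (SE 0.14, adjusted p = 0.00043), under 2-fold, but 5 of its 6 mutant arrays were at or under the floor, so the order of the mutants was hardly measured.

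**Figure D3:**
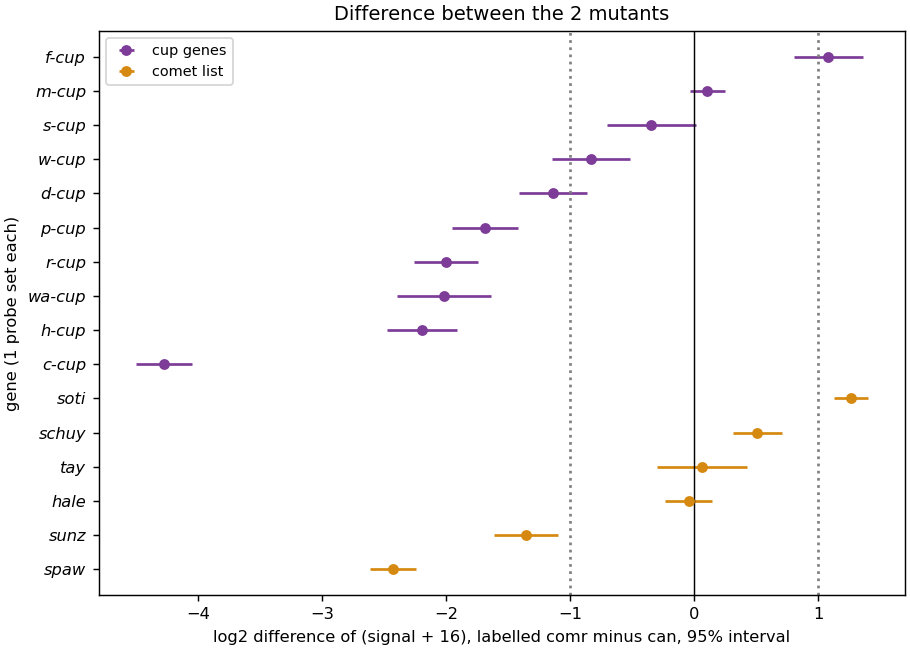
Difference between the mutants (labelled comr minus can, log2 of signal + 16) with 95% intervals for the tested cup genes and the comet list, and dotted lines at 2-fold. c-cup lies at -4.28 and f-cup at 1.08, and the intervals of m-cup and s-cup include 0. For genes at the floor in the comr-labelled arrays the plotted size depends on the offset.

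Among all tested probe sets 1179 were called lower than control in both mutants. Of these 53.1% were lower in the comr-labelled arrays than in can, 45.8% were not called between the mutants, and 13, or 1.1%, were higher in the comr-labelled arrays. The 6 cup genes called lower in both divided as 4, 1 and 1. f-cup is thus among those 13 probe sets, and c-cup and r-cup were called lower only in the comr-labelled arrays, as were 455 of all tested probe sets.

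**Figure D4:**
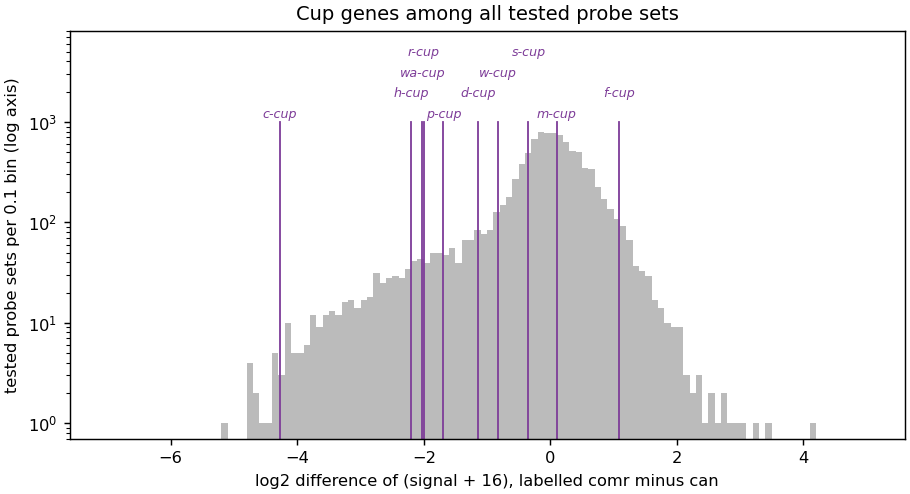
Histogram of the difference between the mutants (labelled comr minus can, log2 of signal + 16) over 9775 tested probe sets in bins of 0.1 with a log count axis, and vertical lines at the 10 tested cup genes. The cup genes reach from -4.28 for c-cup to 1.08 for f-cup, and m-cup lies in the central peak.

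The comet genes are the other class transcribed after meiosis. Of 13 listed symbols 6 were measured, and 1 of these, tay, is not a comet gene and was listed in error. The other 5 (hale, schuy, soti, spaw and sunz) were called lower in both mutants, while tay was called in neither. soti, an inhibitor of a ubiquitin ligase in spermatids, gave 1911.6, 1986.9 and 1950.6 in control, 899.3, 953.3 and 873.7 in the comr-labelled arrays, and 367.3, 357.2 and 382.0 in can. Its change of -1.09 in the comr-labelled arrays was called as deposited, while under quantile normalisation or spiked-control centring 4 comet genes instead of 5 were called there. Like f-cup it was higher in the comr-labelled arrays than in can (1.26, SE 0.062). In the comr-labelled arrays sunz was under the floor, at least 25.1-fold lower than control, so its order relative to spaw (-4.62, SE 0.085) was not measured, and schuy changed by -2.67 (SE 0.090). sunz and spaw were lower in the comr-labelled arrays than in can, and hale and schuy were not called between the mutants.

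Of 16 tested genes for spermatids and meiosis that are transcribed in spermatocytes, 13 were called lower in the comr-labelled arrays and 14 in can, with 0 and 1 higher. At an unadjusted p under 0.05, 16 and 14 were lower and 0 and 1 higher. Over the 5 scalings the called counts were 10 to 16 in the comr-labelled arrays and 13 to 15 in can. The share of all probe sets at an unadjusted p under 0.05 was not counted, here or for the lists that follow. At an adjusted p under 0.05 with no minimum fold, 2820 and 2332 of all 9775 were lower and 4940 and 4616 higher. The sperm tail gene Mst87F gave 4041.7, 3864.5 and 3981.5 in control, 245.7, 278.1 and 220.7 in the comr-labelled arrays, and 935.0, 1045.1 and 861.7 in can. Between the mutants 9 of the 16 were called lower in the comr-labelled arrays, as Mst87F was, 2 were called higher and 5 were not called. Of all tested probe sets 10.3% were called lower and 4.54% higher there. Of 11 arrest genes that encode tMAC subunits or testis TAFs, 0 were called lower, while 10 in the comr-labelled arrays and 7 in can were called higher (unadjusted, 11 and 9 higher and 0 and 1 lower). With ribosomal protein centring 7 and 0 of them were called higher and 0 and 1 lower, so the calls in can rest on the scaling. At an unadjusted p under 0.05 with that centring, 5 of them were higher and 3 lower in can. Beside these lists, 16.7% and 13.1% of all tested probe sets were called lower and 28.9% and 20.7% higher as deposited. Ribosomal protein centring gave 3475 and 3625 lower and 800 and 231 higher of all 9775. Of 6 spermatocyte markers, 4 were called lower and 2 higher in the comr-labelled arrays, and 3 and 1 in can, with bol and twe also in the list of 16. Among them the tubulin betaTub85D changed by -3.35 and -2.69 (SE 0.094 each), and the RNA-binding protein gene Rbp4 rose by 2.49 and 2.16 (SE 0.091 each). Of 4 tested somatic cyst and hub cell genes, 0 were called by limma in either mutant against control, and 1 and 2 were higher at an unadjusted p under 0.05. With ribosomal protein centring all 4 were instead lower at that level in both mutants, and 0 and 1 were called lower. Of 5 early germline genes 4 and 3 were called higher and 0 lower. With ribosomal protein centring 2 and 0 of these 5 were called higher and 0 and 1 lower. Of 8 tested accessory gland genes 1 and 0 were called lower, and of 2 duct genes 0.

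The accessory gland signal varied more within groups than the cup signals above the floor did. Comr-labelled replicate 1 had a mean accessory gland signal of 172.8 against 7 and 4.55 in replicates 2 and 3. On the same arrays r-cup gave 101.5, 148.5 and 133.6 and c-cup 6.8, 14.9 and 10.6. In control the gland signal was 408.8, 210.5 and 60.7, while w-cup stayed at 1196.7 to 1256.5. The part of the gland signal in the cup results was not tested.

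The genes whose pattern over the 9 arrays lay closest to a cup gene were sought among 8212 other genes, by the root mean square difference after subtracting each probe set's own control mean. Closest to w-cup were scpr-B (0.277), Vha36-2 (0.403), a testis paralog of a proton pump subunit, and CG10317 (0.424). Closest to c-cup were CG15177 (0.206), the carbonic anhydrase gene CAH15 (0.213) and CG45067 (0.278). CG15177 gave 1067.8, 1072.4 and 1046.9 in control, 16.5, 19.1 and 20.1 in the comr-labelled arrays, and 453.3, 507.3 and 527.3 in can. It was called lower in both mutants (-1.08 in can, adjusted p = 1.37e-07). Closest to f-cup were CG7352 (0.15), Pof (0.152), which encodes a protein that binds chromosome 4, and the long non-coding RNA CR32661 (0.186). Pof gave 2780.0, 2790.6 and 2946.7 in control, 937.2, 1150.5 and 1341.2 in the comr-labelled arrays, and 461.1, 549.9 and 569.8 in can. The search fixed the likeness of these genes to the cup genes.

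The 10 cup genes lay on chromosomes 3R (5 genes), 2L and X (2 each) and 2R (1), and none was the nearest protein-coding neighbour of another in the RefSeq table of Release 6. According to it, 6 of them overlapped another gene: c-cup overlaps a microRNA gene, d-cup an antisense RNA gene, f-cup CG14367 and ninaB, h-cup Rbp, s-cup fdl and w-cup Trim9. Whether the probes read the overlapped gene was not tested. The 4 tested probe sets of overlapped genes (ninaB, Rbp and 2 of Trim9) were not called in either mutant by limma, since none reached 2-fold. At an unadjusted p under 0.05, 3 and 1 were lower, and these also had an adjusted p under 0.05. They were ninaB (-0.75 and -0.50) and, in the comr-labelled arrays alone, Rbp (-0.55) and a Trim9 probe set (-0.55). At that adjusted p with no minimum fold, 2820 and 2332 of all 9775 were lower. Of 20 flanking genes 10 were tested, and 2, or 20%, were called lower in each mutant, beside 16.7% and 13.1% of all probe sets. Another 3 in the comr-labelled arrays and 2 in can were called higher, beside 28.9% and 20.7% of all tested probe sets, so at about that rate. The higher ones were Ccm3 beside h-cup (1.04, not called in can), Det beside m-cup (1.44 and 1.396) and CG1532 beside r-cup (1.67 and 1.27). The lower ones were CG11666 beside r-cup (-4.29, SE 0.10 in the comr-labelled arrays and -2.49, SE 0.10 in can) and CG10909 beside d-cup (-2.54, SE 0.13 and -1.38, SE 0.13).

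The scaling of the arrays moved the changes against control, and not all cup genes the same way: under quantile normalisation the can change of p-cup went from -1.15 to -1.45 and that of r-cup from -0.66 to -0.35. Over 5 scalings the median change of all tested probe sets was -0.54 to 0.79 in the comr-labelled arrays and -0.71 to 0.56 in can. Lower calls made up 36.6% of all calls in the comr-labelled arrays as deposited, 24.2% with spiked-control and 81.3% with ribosomal protein centring. In can they made up 38.6%, 24.7% and 94%, with 46.1% under quantile normalisation and 52.3% under array median centring. Between the mutants they made up 69.3% as deposited, 57.5% with spiked-control centring, 57.8% with ribosomal protein centring and 50.5% with array median centring. Over these scalings c-cup, h-cup, wa-cup, p-cup and r-cup were called lower in the comr-labelled arrays than in can each time, and f-cup was called higher each time.

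**Figure D5:**
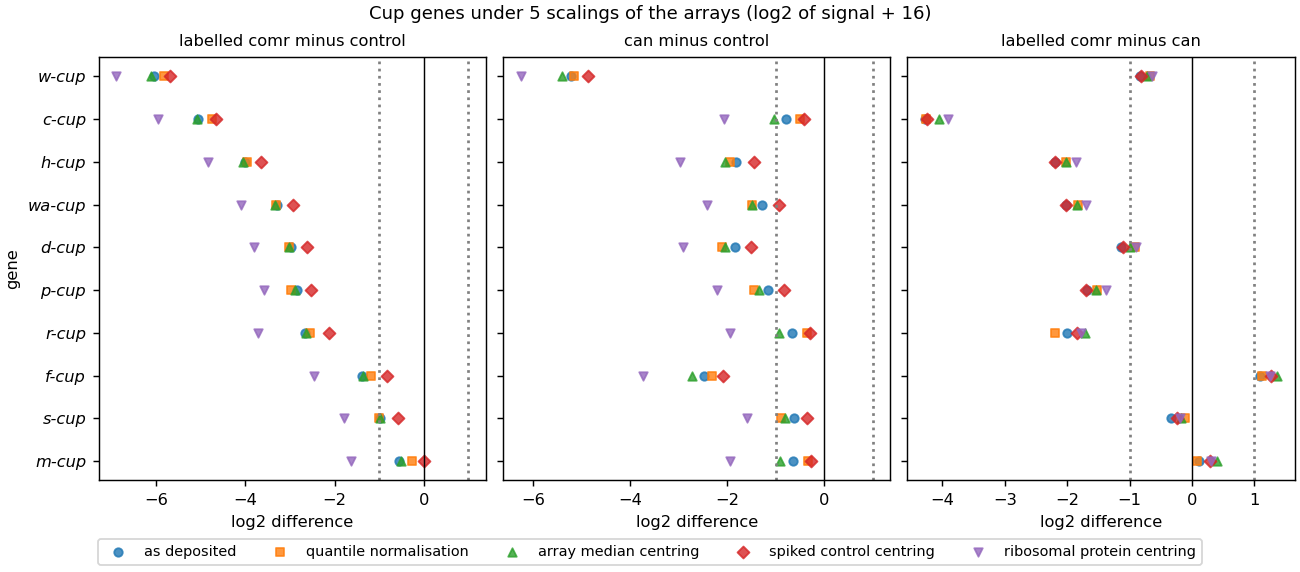
Differences of the tested cup genes (log2 of signal + 16) under 5 scalings of the arrays, for each mutant against control and for the mutants against each other, with dotted lines at 2-fold. Ribosomal protein centring shifts all genes to lower values against control, for example c-cup in can from -0.78 to -2.06, while in the right panel f-cup stays at 1.08 to 1.36.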

How the data were processed

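The authors deposited 1 linear intensity per probe set and array. Their software was GCOS 1.4, according to the submitters' processing notes, and the cRNA came from 2 µg of total RNA, per the labels. The signal algorithm, the background step and a genome build were not found in the labels or files. Arrays had the same mean, 100, once 2% of values at either end were trimmed, and were not normalised further. Symbols came from the platform annotation, updated through gene identifiers with the RefSeq gene table. The 44 control probe sets were left out, as were the dimmest 30% by mean signal (up to 15.1), which left 9775. All 9 arrays entered 1 limma 3.58.1 fit (R 4.3.3) of log2(signal + 16) with 1 coefficient per group and an intensity trend, with two-sided tests. The fit was tested on simulated data. Named are all cup genes, comet genes, members of marker lists and the 3 closest patterns for w-cup, c-cup and f-cup. Other genes, such as the flanking ones, were chosen after their values were seen. Members and lists were chosen with earlier results of these data known. Arrays with the same replicate number did not deviate together (r = -0.137 to 0.193), so no block was used. Alternatives changed the offset, filter, scaling, variance model, arrays and fold threshold. The number of arrays limits the precision.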

Additional observations from a re-analysis of the deposited data

How the results depend on the processing

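Of 627 recomputed changes of single cup genes 601 stayed on the same side of the call, 13 lost and 13 gained it, and no called change turned its sign. Many of these could not move in size. The filter, the intensity trend, a replicate block and arrays outside a comparison leave its log2 difference unchanged by construction. The count of 601 is therefore partly fixed in advance. An offset of 64, which shrinks dim signals, gave 3 cup genes lower and 0 higher between the mutants and 1 comet gene lower. It also gave 1492 and 946 probe sets higher than control in the comr-labelled arrays and can, and 503 lower and 150 higher between the mutants, where an offset of 1 gave 703 higher. Ribosomal protein centring called 10 cup genes lower in each mutant. Over all probe sets it gave 3475 lower and 800 higher in the comr-labelled arrays and 3625 and 231 in can. Spiked-control centring called 7 cup genes lower in the comr-labelled arrays and 4 in can. Over all probe sets it gave 1344 lower and 4211 higher in the comr-labelled arrays and 985 and 3008 in can. The same 4 cup genes, w-cup, d-cup, f-cup and h-cup, were called lower in can with an offset of 64. Array median and spiked-control centring gave 825 and 699 higher between the mutants. With no minimum fold 10 cup genes were lower in can, and over all probe sets 2820 were lower and 4940 higher in the comr-labelled arrays, 2332 and 4616 in can, and 2357 and 2453 between the mutants. At 4-fold, 2 cup genes were lower in can and 0 higher between the mutants, with 1069 and 588, 584 and 225, and 439 and 28 probe sets. Leaving out 1 array gave 0 to 1 cup genes higher between the mutants, 0 without can replicate 1. The causes were not tested beyond these constructions. Each replicate block holds 1 array per group, so it cannot change a difference, and that of f-cup stayed at 1.08 by construction. Only SE and p could change, and no call of a cup gene did (f-cup adjusted p = 2.3e-05). Bounds hold for the values as deposited and are limited by the floor.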
